A study of Bos taurus with 6 samples.

Results

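The genes described here are 10 genes grouped as feedback and readout genes of ERK signaling. They are the phosphatase genes DUSP4, DUSP5, DUSP6 and DUSP10, the Sprouty genes SPRY1, SPRY2 and SPRY4, the Sprouty-related genes SPRED1 and SPRED2, and the transcription factor gene ETV5. They were chosen by symbol and matched by Entrez identifier, and all 10 were found among the 19163 genes of the count table. RNA-seq was performed on F7, a bovine embryonic stem cell (bESC) line of Holstein Friesian breed derived from in vitro fertilized embryos. F7 was grown either on mitomycin C-treated mouse embryonic fibroblasts, which are alive but cannot divide (MC-F7, labelled 1M-F7 in the deposit), or on methanol-fixed mouse embryonic fibroblasts, which are dead (MT-F7). There were 3 libraries per group, with 15 passages given for both. The medium of both groups held recombinant FGF and the Wnt inhibitor IWR1. Fresh medium was given daily to MC-F7 and every other day to MT-F7, so the feeder and the medium schedule cannot be told apart. F7 is a single line, and before RNA extraction the dissociated cells were left on gelatin so that attaching feeder cells stayed behind.

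As background, FGF binding to its receptors activates RAS, the RAF and MEK kinases and finally the kinase ERK, which enters the nucleus and turns on target genes. Some targets encode inhibitors that damp the pathway. DUSP proteins remove phosphate from MAP kinases, Sprouty proteins block signaling between receptor and RAF, and SPRED proteins bring the RAS inhibitor neurofibromin to the membrane. ETV5 is an ETS family transcription factor that carries FGF signaling into transcription. In pluripotent stem cells FGF and ERK signaling is known for its role in the exit from the naïve state, and transcripts of this group are often read as a measure of ERK output.

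Between 21958386 and 24933430 reads were counted on genes per library, and 3 counts, taken as the smallest detectable amount, corresponded to 0.120 to 0.137 CPM, the normalized count scaled to the library size. Genes of the mitochondrial genome took 16.3% to 23.2% of the counts in replicates 1 and 2 of both groups, and 28.3% and 27.9% in replicate 3 of MC-F7 and MT-F7. Of 11 pluripotent cell markers, 7 were in the table, and their summed level was 1360 to 2031 CPM in MC-F7 and 753 to 880 CPM in MT-F7, most of it from POU5F1. Of these 7 markers 5 fell (adjusted p under 0.05), 71.4% beside 23.2% of all genes called in either direction. SALL4 and PRDM14 did not pass, with log2 fold changes of 0.33 and 0.15. All 20 fibroblast markers were in the table, and their summed level was 1551 to 2026 CPM in MC-F7 and 2555 to 3911 CPM in MT-F7, most of it from VIM. Of 19 tested fibroblast markers 7 rose and 1 fell, 42.1% in all beside 23.2% of all genes. FAP was too low to be tested. Its reads numbered 0, 9 and 7 in MC-F7 replicates 1, 2 and 3, and 0 in every MT-F7 library. The part of these shifts in the differences given here was not tested, and in bulk RNA fewer cells of a type and less RNA per cell cannot be told apart. The feeders are mouse cells, and the study reports that a smaller share of MC-F7 than of MT-F7 reads mapped to the bovine genome. It proposes that fixed feeders left less feeder contamination. How far mouse reads were lost or counted on bovine genes was not tested, so the fibroblast sums do not measure the feeder RNA. The labels do not say that replicates were separate cultures, and p values then measure only the spread between these libraries, which may be technical.

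Of the 10 genes, 5 changed between the feeders, 1 higher and 4 lower in MT-F7 (edgeR quasi-likelihood test, adjusted p under 0.05). Sprouty members moved in opposite directions, because SPRY1 rose 2.02-fold while SPRY4 fell to 0.359 of its MC-F7 level. DUSP5, DUSP10 and SPRED1 also fell, and DUSP4, DUSP6, SPRY2, SPRED2 and ETV5 did not pass the test. Over all 13001 tested genes 23.2% passed, 11.9% higher and 11.3% lower in MT-F7, against 50% of these 10 genes. The 10 genes were chosen with earlier results of these data known. This share and the medians below are therefore descriptions and cannot show that the group changed more than others. With the values that the authors call TPM limma on log2(TPM + 1) gave 1547 higher and 820 lower over all genes, and 2 higher and 2 lower among these 10. The 10 log2 fold changes (MT-F7 over MC-F7) had a median of -0.18, and the median over all tested genes was -0.0026. Their absolute log2 fold changes had a median of 0.59, against 0.34 over all tested genes. The groups did not overlap in 6 of the 10 genes, 2 above and 4 below in MT-F7, where 40% of all tested genes did not overlap (19.9% above and 20.1% below). Without replicate 3 of both groups, the libraries with the highest mitochondrial share, 4 of the 10 genes passed, and the one lost was DUSP5. Over all genes the count rose in that fit, to 4242 of 13073 from 3016 of 13001 with all libraries.

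**Figure D1:**
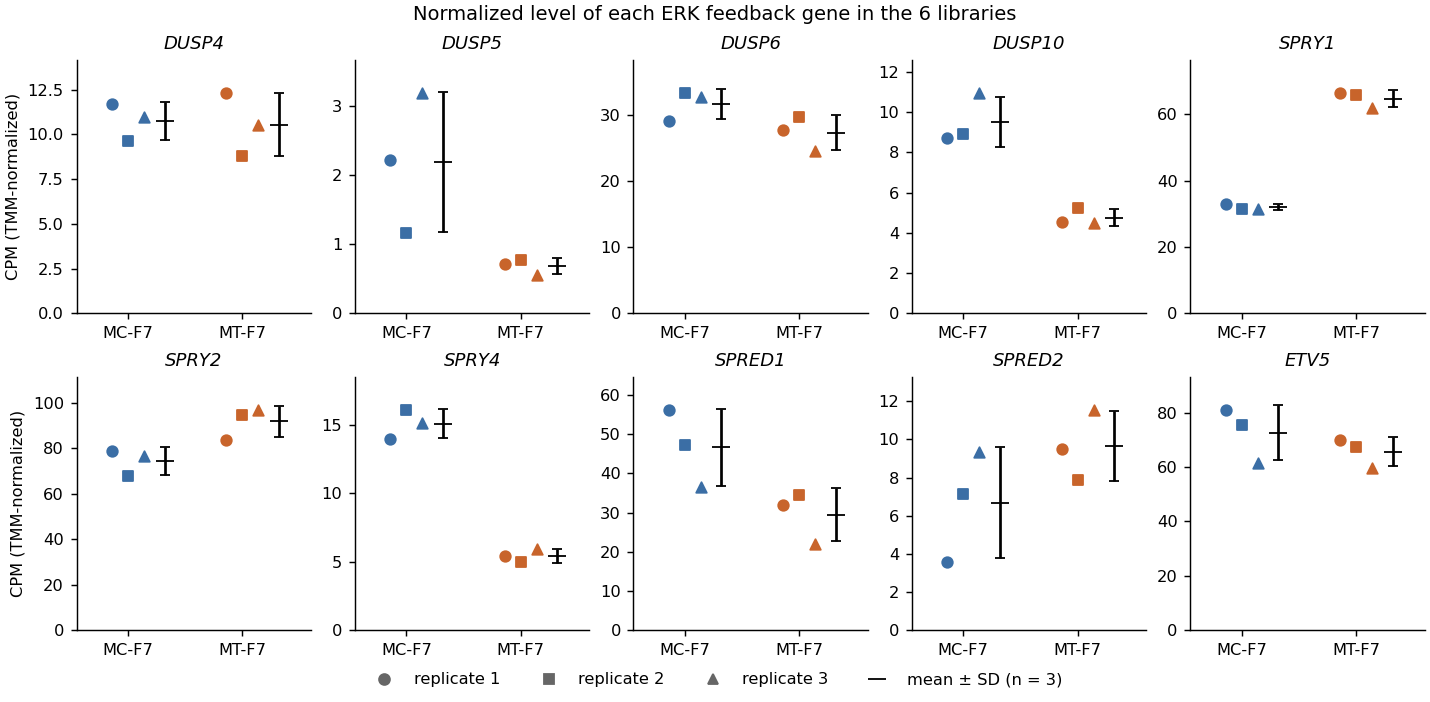
Normalized level (CPM, vertical axis starting at 0) of each of the 10 genes in the MC-F7 and MT-F7 libraries. Each marker is 1 library, its shape gives the replicate, and the bar is the mean ± SD of 3 libraries. SPRY1 was above in all MT-F7 libraries, and SPRY4 and DUSP10 were below in all of them by a wide gap, while DUSP4 and ETV5 overlapped.

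SPRY1 (Entrez gene 507095) encodes a membrane-associated inhibitor of receptor tyrosine kinase signaling. It was at 33.0, 31.6 and 31.5 CPM in the MC-F7 libraries and at 66.4, 65.9 and 61.8 CPM in the MT-F7 libraries. The 3 libraries of each group were close together and far from the other group, and the coefficient of variation was 2.70% for MC-F7 and 3.88% for MT-F7, the lowest of the 10 genes in both. The log2 fold change was 1.01 (standard error 0.141, adjusted p = 0.000241), a 2.02-fold rise.

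SPRY4 (504593), a Sprouty protein that acts at the level of RAS and RAF activation, went the other way. It was at 14.0, 16.1 and 15.1 CPM in MC-F7 and at 5.38, 4.94 and 5.90 CPM in MT-F7. No MT-F7 library came near the lowest MC-F7 library. The log2 fold change was -1.48 (standard error 0.181, adjusted p = 9.6e-05), and of the 10 genes SPRY4 had the smallest p.

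SPRY2 (539090), the best studied Sprouty inhibitor of FGF signaling, was at 79.0, 67.7 and 76.8 CPM in MC-F7 and at 83.9, 94.7 and 97.0 CPM in MT-F7. All MT-F7 libraries lay above all MC-F7 libraries, but the nearest libraries of both groups were close. At 0.30 the log2 fold change (standard error 0.145, adjusted p = 0.155) did not pass, and its 95% interval ran from -0.01 to 0.62. It passed with limma on the deposited TPM values (adjusted p = 0.0418 with a pseudocount of 1 and 0.0446 with 0.1), in which library size is still contained, but not among genes with a mean TPM of 1 or more (adjusted p = 0.0629).

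The opposite moves changed the makeup of the Sprouty family. Levels of different genes can be compared only per length, so the deposited TPM values were used, in which each count is multiplied by a factor of its gene. That this factor reflects gene length was assumed and not checked. On MC feeders SPRY4 made up 12.3% ± 1.46 of the summed Sprouty TPM, against 3.39% ± 0.317 on MT feeders (SD, n = 3). SPRY1 took 22.6% ± 0.892 and 35.1% ± 2.44, and SPRY2 took 65.0% ± 2.19 and 61.5% ± 2.44. SPRY2 held most of the sum on both feeders, while the share of SPRY1 grew and that of SPRY4 shrank. After scaling by the effective library sizes, the summed TPM of the 3 genes was 13.1 ± 0.630 for MC-F7 and 17.0 ± 0.656 for MT-F7, 1.30 times higher, without overlap.

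Ratios of counts within a library need no scaling, and 7 pairs of paralogs were compared by them with an exact two-sided permutation test over the 6 libraries, whose smallest possible p is 0.1. The log2 ratio of SPRY1 to SPRY4 was 1.09 ± 0.136 in MC-F7 and 3.58 ± 0.177 in MT-F7, a difference of 2.49, which is a 5.61-fold change of the ratio. The log2 ratio of SPRY2 to SPRY4 differed by 1.78 and that of SPRY1 to SPRY2 by 0.71. In these 3 pairs the groups did not overlap, and each reached the smallest possible p (exact permutation p = 0.1, adjusted p = 0.14 over 7 pairs), which cannot pass a threshold of 0.05.

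**Figure D2:**
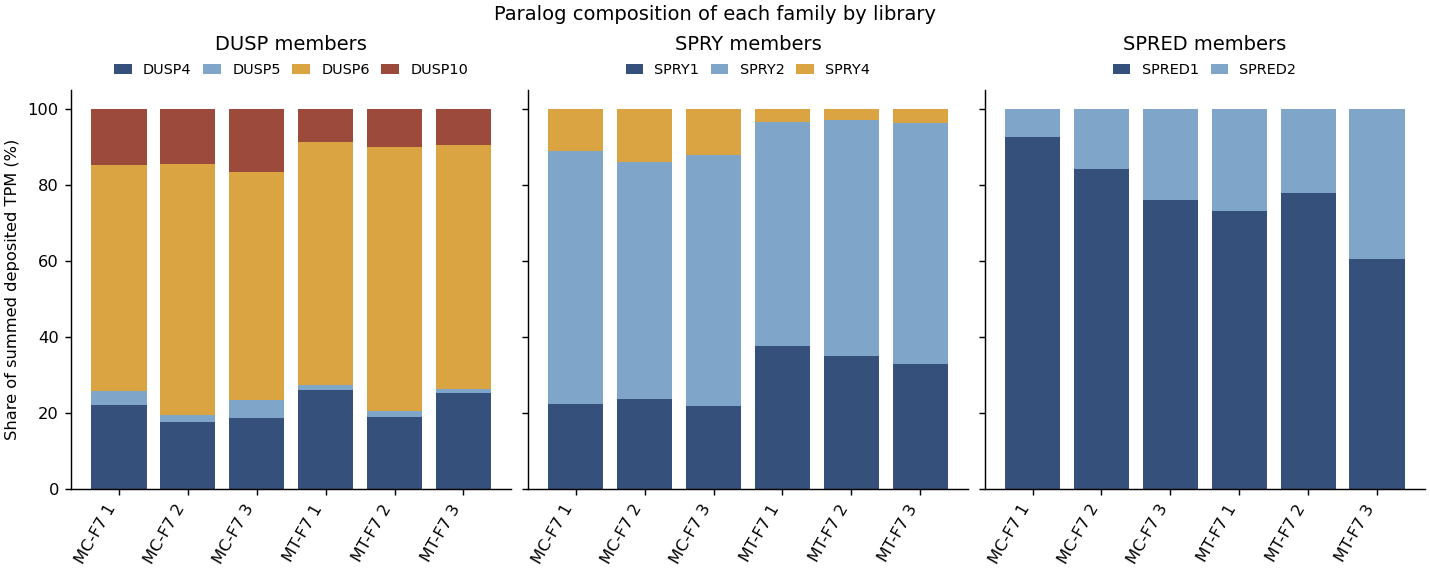
Share (%, vertical axis) of each paralog in the summed deposited TPM of its family, 1 bar per library. In the Sprouty panel the SPRY4 segment shrank from 12.3% on average in MC-F7 to 3.39% in MT-F7, and the SPRY1 segment grew from 22.6% to 35.1%.

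Among the phosphatases, DUSP6 (515310) is the cytoplasmic enzyme that acts mainly on ERK and is widely used as a readout of FGF signaling. It was at 29.2, 33.3 and 32.7 CPM in MC-F7 and at 27.7, 29.8 and 24.5 CPM in MT-F7. The MT-F7 libraries tended lower, but the highest of them exceeded the lowest MC-F7 library. Its log2 fold change was -0.21 (standard error 0.154, adjusted p = 0.349), and its 95% interval from -0.55 to 0.12 leaves room for a modest fall but not for a change as large as that of SPRY1 or SPRY4.

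DUSP5 (507061) is a nuclear phosphatase that acts on ERK. Its MC-F7 counts were 50, 28 and 68 and its MT-F7 counts were 18, 20 and 13, which are 2.21, 1.16 and 3.18 CPM against 0.717, 0.772 and 0.552 CPM. These were the lowest counts among the 10 genes. The groups did not overlap, and MC-F7 varied widely among its libraries, with a coefficient of variation of 46.2%. The change on the log2 scale was -1.67 with a 95% interval from -2.61 to -0.73 (adjusted p = 0.0142). Without MC-F7 replicate 3 it was -1.30 and no longer passed (adjusted p = 0.0595). The call was also lost with limma on the deposited TPM values (adjusted p = 0.0772 with a pseudocount of 1 and 0.0586 with 0.1).

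DUSP10 (541175) encodes a phosphatase that acts mainly on the stress kinases p38 and JNK. It was at 8.71, 8.91 and 10.9 CPM in MC-F7 and at 4.54, 5.25 and 4.50 CPM in MT-F7. Every MT-F7 library was below every MC-F7 library. Its log2 fold change was -0.997 (95% interval -1.43 to -0.56, adjusted p = 0.00342).

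DUSP4 (540380), a nuclear phosphatase of ERK, JNK and p38, was at 11.7, 9.62 and 10.99 CPM in MC-F7 and at 12.3, 8.81 and 10.5 CPM in MT-F7. The MT-F7 range enclosed the MC-F7 range. Its log2 fold change was -0.03 (standard error 0.190, adjusted p = 0.931), with a 95% interval from -0.44 to 0.38.

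Ratios between the phosphatases were compared in the same way. The log2 ratio of DUSP4 to DUSP5 was 2.40 ± 0.623 for MC-F7 and 3.92 ± 0.384 for MT-F7, and that of DUSP5 to DUSP6 was -3.96 ± 0.765 and -5.30 ± 0.108. In both pairs the groups did not overlap (exact permutation p = 0.1, adjusted p = 0.14). The log2 ratio of DUSP4 to DUSP6 differed by 0.18 with overlapping groups (exact permutation p = 0.5). DUSP6 took 62.0% ± 3.56 of the summed TPM of the 4 phosphatases in MC-F7 and 65.8% ± 3.23 in MT-F7, and DUSP10 took 15.2% ± 1.12 and 9.41% ± 0.754. Their scaled sum was 5.26 ± 0.294 in MC-F7 and 4.26 ± 0.281 in MT-F7, without overlap.

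SPRED1 (519882), which recruits neurofibromin to shut off RAS, was at 56.3, 47.3 and 36.6 CPM in MC-F7 and at 32.0, 34.6 and 21.9 CPM in MT-F7. The groups did not overlap, but the lowest MC-F7 library and the highest MT-F7 library were close. On the log2 scale the change was -0.66 (standard error 0.206, adjusted p = 0.0343). The call was lost when MC-F7 replicate 1, MC-F7 replicate 2, MT-F7 replicate 1 or MT-F7 replicate 3 was left out, with adjusted p = 0.123, 0.104, 0.0655 and 0.0708. It was also lost with limma on the deposited TPM values (adjusted p = 0.256 with a pseudocount of 1, and 0.161 with a mean TPM of at least 1).

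SPRED2 (519081), its paralog with the same action on RAS, was at 3.58, 7.13 and 9.35 CPM in MC-F7 and at 9.48, 7.88 and 11.5 CPM in MT-F7. MC-F7 replicate 1 was far below the other MC-F7 libraries, and the groups overlapped. On the log2 scale the change was 0.53 (standard error 0.295, adjusted p = 0.224), with a 95% interval from -0.11 to 1.17. SPRED1 held 84.3% ± 8.37 of the summed TPM of the pair in MC-F7 and 70.6% ± 9.04 in MT-F7, and the log2 ratio of SPRED1 to SPRED2 differed by -1.28 with overlapping groups (exact permutation p = 0.2).

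ETV5 (541166) was at 81.0, 75.5 and 61.4 CPM in MC-F7 and at 69.7, 67.5 and 59.7 CPM in MT-F7. The groups overlapped, since MC-F7 replicate 3 fell among the MT-F7 libraries. On the log2 scale the change was -0.15 (standard error 0.156, adjusted p = 0.539), with a 95% interval from -0.48 to 0.19.

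Replicate 3 held the lowest or highest level of its group on both feeders in SPRED1, SPRED2, ETV5, SPRY1, DUSP5 and DUSP10. Relative to the mean of its group on the log2 scale, replicate 3 was at -0.33 in MC-F7 and -0.40 in MT-F7 for SPRED1, at -0.23 and -0.13 for ETV5, and at 0.55 and 0.27 for SPRED2. It was the lowest library for SPRED1 and ETV5 and the highest for SPRED2, but MC-F7 replicate 1 was farther from the SPRED2 mean, at -0.72. The replicate 3 libraries are the libraries with the highest mitochondrial share, whose part in these values was not tested. For SPRY1, where replicate 3 was also the lowest library on both feeders, the same deviations were -0.03 and -0.06. In DUSP5 and DUSP10 replicate 3 was the highest library in MC-F7 but the lowest in MT-F7. There the deviations were 0.53 and -0.16 for DUSP5, and 0.20 and -0.07 for DUSP10.

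**Figure D3:**
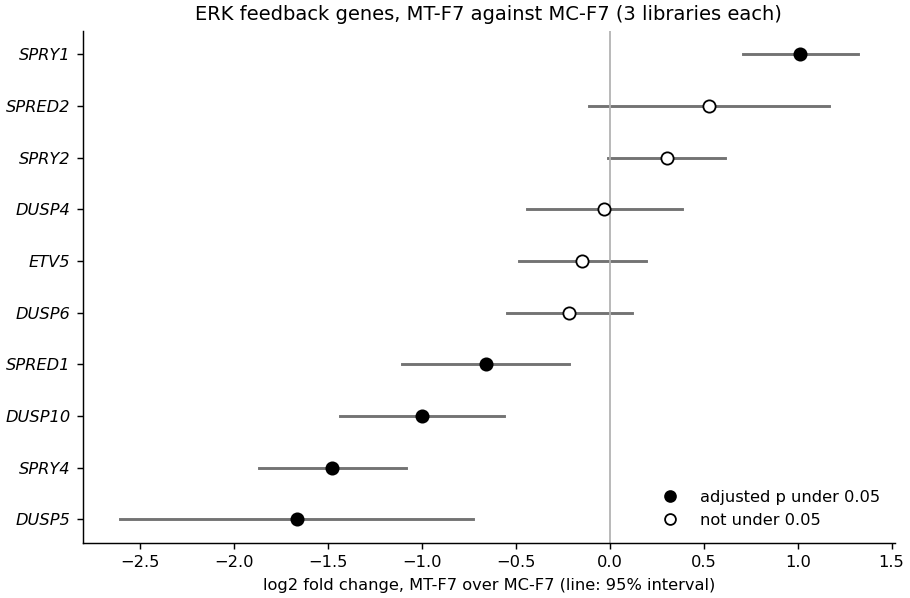
Log2 fold change (horizontal axis, MT-F7 over MC-F7) of the 10 genes with 95% intervals from the edgeR fit, 3 libraries per group. Filled points passed an adjusted p of 0.05, with SPRY1 at 1.01 on the right and SPRED1, DUSP10, SPRY4 and DUSP5 between -0.66 and -1.67 on the left.

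On the scale of the deposited TPM, SPRY2 was the highest of the 10 genes on both feeders. It was at 8.11 ± 0.413 TPM in MC-F7 and 10.96 ± 0.832 TPM in MT-F7. In MC-F7 it was followed by ETV5 (3.76 ± 0.672 TPM), DUSP6 (3.11 ± 0.323), SPRY1 (2.83 ± 0.186) and SPRED1 (2.45 ± 0.584), of which no neighbours differed beyond their SDs. In MT-F7 SPRY1 stood above ETV5 and DUSP6, with 6.25 ± 0.522 TPM against 3.71 ± 0.45 and 2.94 ± 0.420. SPRY4 dropped below DUSP4 on the same scale, from 1.54 ± 0.178 against 0.968 ± 0.0702 TPM in MC-F7 to 0.602 ± 0.0250 against 1.04 ± 0.168 in MT-F7. DUSP5 was the lowest on both feeders, with 0.170 ± 0.0702 and 0.0595 ± 0.0126 TPM.

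The other genes of the pathway were read from the same fit. Of 49 tested genes, from the FGF genes to the kinases that ERK activates, 10 passed, 6 higher and 4 lower in MT-F7. This is 20.4% beside the 23.2% of all genes. The median log2 fold change of the 49 genes was 0.07. Most of those that rose were ligands and not parts of the intracellular cascade.

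Among 10 tested FGF genes 4 rose and 1 fell, 50% in all beside 23.2% of all genes. FGF10 rose from 0.780 ± 0.136 to 13.9 ± 2.83 CPM and FGF8 from 3.22 ± 1.71 to 22.7 ± 2.86 CPM, or by 4.14 and 2.81 on the log2 scale (adjusted p = 7.65e-07 and 2.82e-05). FGF3 rose from 0.364 ± 0.113 to 6.03 ± 0.339 CPM and FGF5 from 0.297 ± 0.0841 to 1.77 ± 0.210 CPM, or by 4.02 and 2.56 on the log2 scale. Both were low in MC-F7, with 5 to 10 counts per library for FGF3 and 5 to 8 for FGF5. FGF17 fell from 1.04 ± 0.0807 to 0.350 ± 0.130 CPM (adjusted p = 0.0293), a call that was lost when any library except MT-F7 replicate 3 was left out (adjusted p up to 0.123).

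Of 6 tested receptors FGFR4 passed, 16.7% beside 23.2% of all genes. FGFR4 fell from 1.83 ± 0.375 to 0.332 ± 0.104 CPM, a log2 fold change of -2.44 (adjusted p = 0.00145). FGFR1 was at 236 ± 36.7 CPM on MC feeders and 222 ± 36.7 CPM on MT feeders, and FGFR2 at 119 ± 22.8 and 116 ± 14.4 CPM, differences smaller than their SDs.

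Between receptor and ERK, 1 of 9 adaptors and exchange factors (11.1%) and 2 of 13 genes from RAS to ERK (15.4%) passed. Both shares are below the 23.2% of all genes, but they rest on few genes and the difference was not tested. SHC1, an adaptor that links receptors to RAS, rose from 194 ± 10.2 to 293 ± 8.40 CPM (log2 fold change 0.60, adjusted p = 0.00817, and 0.0544 without MC-F7 replicate 2). BRAF, the RAF kinase that directly activates MEK, fell from 19.1 ± 2.38 to 5.99 ± 0.859 CPM, and its log2 fold change was -1.67 (adjusted p = 4.91e-05). MAP2K2, which encodes MEK2, fell from 283 ± 29.2 to 197 ± 13.7 CPM (log2 fold change -0.53, adjusted p = 0.0226), and its call was lost without MC-F7 replicate 1, MT-F7 replicate 1 or MT-F7 replicate 2 (adjusted p up to 0.105) and in 2 of 3 limma fits on TPM (0.0545 and 0.0931).

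RASAL2, an activator of RAS GTPase activity and thereby an inhibitor of RAS, rose from 1.33 ± 0.376 to 7.28 ± 0.579 CPM. Its log2 fold change was 2.45 (adjusted p = 4.36e-05). NF1, the gene of the neurofibromin that SPRED proteins recruit, was at 0.438 ± 0.343 and 0.490 ± 0.319 CPM. With 1 to 22 counts per library a difference in NF1 was not detectable at this depth (log2 fold change 0.16, standard error 0.727). MAPK3, the gene of ERK1, had a log2 fold change of 0.29 and did not pass (adjusted p = 0.171). Among 5 tested kinases that ERK activates, the smallest p was that of RPS6KA1, which did not pass (log2 fold change -0.50, adjusted p = 0.0558).

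Of 22 further ERK target and feedback genes that were tested, 6 rose and 1 fell, 31.8% in all beside 23.2% of all genes, with a median log2 fold change of 0.19. The immediate early genes EGR1 and FOS, which ERK induces within minutes, rose from 67.3 ± 21.2 to 281 ± 61.5 CPM and from 15.3 ± 4.17 to 81.2 ± 17.2 CPM. On the log2 scale the rises were 2.06 and 2.41 (adjusted p = 4.36e-05 and 1.04e-05). DUSP1, an immediate early nuclear phosphatase, rose from 34.5 ± 5.68 to 70.1 ± 6.34 CPM, or by 1.02 on the log2 scale.

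IL17RD, the gene of the FGF inhibitor SEF, rose from 0.235 ± 0.0657 to 2.15 ± 1.11 CPM (adjusted p = 0.000765). PHLDA1 and ELK3 rose by 0.94 and 2.28 on the log2 scale, ELK3 from 0.362 ± 0.224 to 1.80 ± 0.405 CPM. In the MC-F7 libraries ELK3 had only 3 to 14 counts and IL17RD only 4 to 7. ETV4, the close paralog of ETV5, was the gene that fell, from 16.2 ± 2.49 to 9.37 ± 1.70 CPM (log2 fold change -0.79, adjusted p = 0.0115), while ETV5 had a log2 fold change of -0.15. The difference between ETV4 and ETV5 was not tested. The ETV4 call was lost without MT-F7 replicate 2 (adjusted p = 0.0581) and with limma on log2(TPM + 1) and log2(TPM + 0.1) (0.0615 and 0.0546). The 15 others did not pass, with log2 fold changes from -0.65 (DUSP16) to 0.54 (SPRED3), and the targets MYC and CCND1 were at -0.25 and -0.27.

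**Figure D4:**
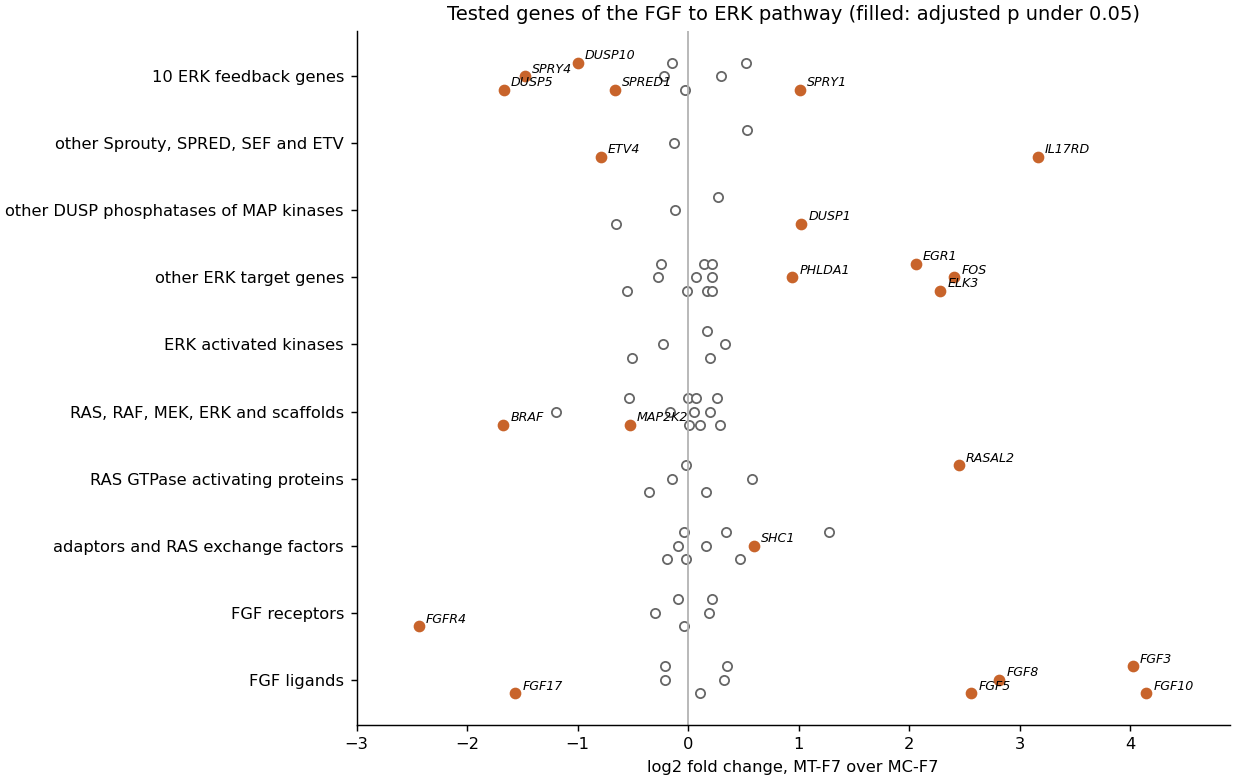
Log2 fold change (horizontal axis, MT-F7 over MC-F7) of every tested gene in the lists of the FGF to ERK pathway, 1 row per list. Filled and named points passed an adjusted p of 0.05. FGF10, FGF3 and IL17RD lie beyond 3 on the right, and FGFR4, BRAF and DUSP5 beyond -1.6 on the left.

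SPRY1, SPRY4 and DUSP10 passed under every setting tried in which they were tested (18, 18 and 17 settings). DUSP6 and ETV5 passed under none of 18. The log2 fold change of SPRY1 ranged from 0.92 to 1.12 over these settings and that of SPRY4 from -1.55 to -0.66, where the values nearest to 0 came from limma on log2(TPM + 1), a scale that understates the change of low genes.

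**Figure D5:**
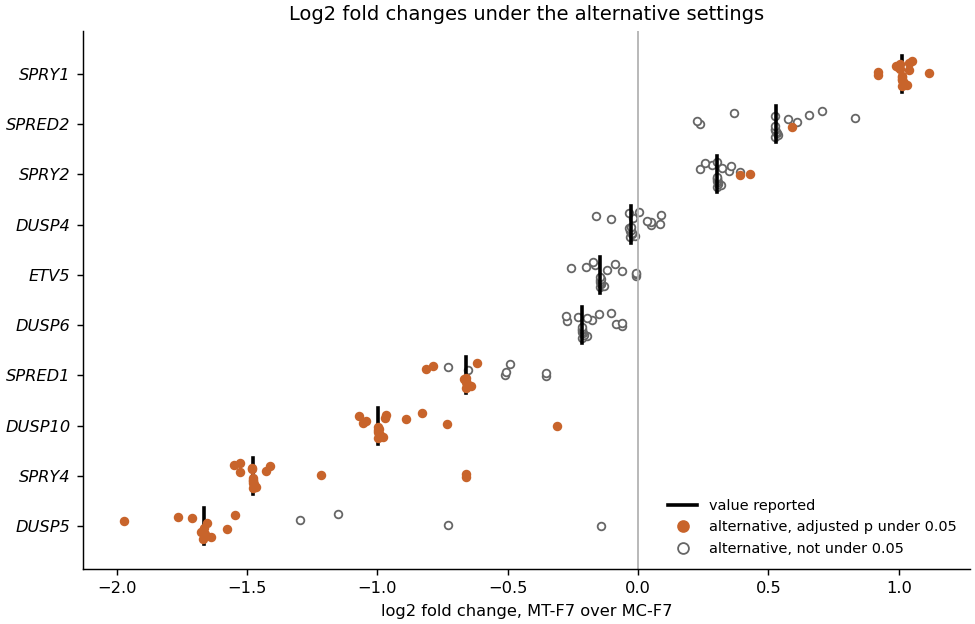
Log2 fold change (horizontal axis, MT-F7 over MC-F7) of the 10 genes as reported (black bars) and under each alternative setting (points, filled where the adjusted p was under 0.05). The SPRY1 points are all filled and lie between 0.92 and 1.12, and the DUSP4 points are all open and lie on both sides of 0.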

How the data were processed

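Per the labels and the study's methods, the authors mapped filtered reads with HISAT2 2.0.5 to a bovine genome from Ensembl and used featureCounts 1.5.0-p3, and the raw counts of 6 libraries were deposited by Entrez gene. The genome build is not given in the sources used here, so no coordinates are printed. The authors also deposited values that they call TPM. Their ratio to the count did not vary between libraries (tolerance 0.001) for 9681 of the 9682 genes whose counts all reached 50, so library size is still in them, and the ratio was not checked against annotated lengths. RefSeq gave symbols for 19074 of 19163 genes.

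Low genes were removed with filterByExpr (minimum count 10, minimum total 15) and the rest compared with edgeR 4.0.16 in R 4.3.3 (TMM, factors 0.971 to 1.04, quasi-likelihood test, two-sided, Benjamini-Hochberg over 13001 genes, threshold 0.05). Levels are CPM with effective library sizes. Standard errors were derived from the F statistic. All 10 genes passed the filter. The members and gene lists were chosen with earlier results of these data known. The genes named were the 10 members, the list genes that passed, a few list genes chosen after their values were seen, and the nearest profiles. Alternatives used DESeq2 1.42.0, limma 3.58.1 (log2 of TPM plus 1 or 0.1), other scalings and filters, a replicate block and libraries left out. Deviations from the group means correlated between same-numbered libraries at 0.167, 0.0707 and 0.505 for replicates 1, 2 and 3. On simulated counts of 19163 genes for this comparison, 73 of 102 genes with an absolute log2 fold change of 1 and 98 of 98 with 2 were recovered, and 9 of 180 calls were false. Intervals and floors cover counting error and the spread between these libraries only. The planned promoter motifs were not analysed here.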

Additional observations from a re-analysis of the deposited data

How the results depend on the processing

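Of the 10 genes, 5 passed, and between 4 and 6 passed under all alternatives but one. With limma on log2(TPM + 1) where the mean TPM reached 1, 2 of 7 tested members passed. There 5 of 25 tested cascade genes, 4 of 12 further targets and 1399 of all 7418 tested genes passed. This setting changed the test, the values and the genes tested, and SPRY2 and SPRED1 were tested but did not pass. With at least 10 counts in every library 6 of 42 tested cascade genes passed, beside 2712 of all 11970 tested genes. DUSP4 changed sign, with a log2 fold change of 0.049 by limma on log2(TPM + 1), with or without the mean TPM minimum, 0.085 on log2(TPM + 0.1), from -0.16 to 0.090 when 1 library was left out, and 0.0043 without replicate 3 of both groups, an alternative chosen after seeing the data. The cause was not tested. When 1 library was left out the count over all genes was 1914 (without MC-F7 replicate 2) to 3093. Nothing in the labels ties same-numbered libraries beyond the number. With the replicate block 4674 genes and 6 members passed, SPRED2 being added (adjusted p = 0.0374), and only replicate 3 correlated best with its own number. All 7 paralog differences kept their direction under the 10 alternatives run for each. No scaling moved the median of all genes by over 0.1. Depth limits DUSP5, with 13 to 68 counts.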

Other observations

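The profiles nearest to that of SPRY4 over the 6 libraries, by the root mean square difference of centred log2 CPM among 11905 genes, were those of ERAP1, KCNK5 and EPHX2, at distances of 0.0773, 0.0912 and 0.102. ERAP1, an aminopeptidase that trims peptides in the endoplasmic reticulum, was at 13.6 CPM in MC-F7 and 4.85 CPM in MT-F7. KCNK5, a potassium channel, was at 154 and 60.4 CPM, and EPHX2, an epoxide hydrolase, at 46.1 and 14.5 CPM. Nearest to SPRY2 were PABPN1, PHKA1 and LZTS2, at distances of 0.0371, 0.0403 and 0.0404, with log2 fold changes of 0.33, 0.29 and 0.34. With 6 libraries in 2 groups these distances describe mainly the difference between the groups.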
